A study of Mus musculus with 4 samples.

Results

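The interleukin-1 and interleukin-36 family was examined in mouse epidermis with a keratinocyte deletion of Stim1 and Stim2, which encode calcium sensors of the endoplasmic reticulum. It is represented here by 10 genes, selected by name from the 56493 genes of the count table. The agonists are Il36a, Il36b, Il36g, Il1a, Il1b, Il18 and Il33. The antagonists are Il36rn, Il1rn and Il1r2. The selection was made with knockout-against-control results of these libraries already known, so the differences below describe these genes and do not independently test the family. All 10 were found in the table. Of these, 6 passed the filter on low counts (Il36a, Il36g, Il18, Il36rn, Il1rn and Il1r2) and 4 did not (Il36b, Il1a, Il1b and Il33).

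The 4 libraries came from the epidermis of dorsal skin, all with a 20 min incubation in 3.8% thiocyanate. Of these, 2 were from mice with a K14-Cre conditional deletion of Stim1 and Stim2 (cKO) and 2 were from mice with homozygous floxed alleles of both genes (control). The keratin 14 promoter directs the recombinase to keratinocytes of the basal epidermis and hair follicle and their descendants, so Langerhans cells, T cells and other resident cells of the sheet are not targeted. The labels give no age, sex or strain, do not say whether the control mice carried the Cre transgene, and do not say whether the libraries of a group came from separate mice. The p-values therefore measure the spread between these libraries, which may be technical.

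Cytokines of this family are epithelial alarm signals. IL-1 alpha and IL-1 beta bind the receptor IL1R1, and the 3 IL-36 agonists bind IL1RL2. Both receptors recruit the shared chain IL1RAP and signal through MYD88 and IRAK kinases to NF-kB. The proteins encoded by Il1rn and Il36rn occupy these receptors without signalling, and IL1R2 is a decoy that binds IL-1 without passing the signal on. IL-18 and IL-33 have receptors of their own, and IL-1 beta and IL-18 are cleaved by caspase-1 before they act. IL-36 cytokines are produced mainly by differentiating keratinocytes and are abundant in psoriatic skin, and loss of the IL-36 receptor antagonist causes a pustular form of the disease. Entry of calcium through store-operated channels, which STIM proteins open, activates the phosphatase calcineurin and the NFAT transcription factors.

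The libraries were shallow, with total counts from 118858 (cKO replicate 2) to 322426 (control replicate 2). A count of 0, taken to allow up to 3 counts, left room for 9.58 to 33.7 CPM (counts per 1000000 counts of the TMM-scaled library). Stim1 had 23 and 6 counts in cKO epidermis, with 24 and 62 in the controls, and Stim2 had 0 and 1 against 3 and 18. Neither difference passed the threshold (edgeR quasi-likelihood test, adjusted p 0.671 for Stim1 and 0.612 for Stim2). The labels do not name the floxed exons, and reads from a 3' end outside the deleted part would not check the deletion. Keratinocyte markers, all 8 detected, summed to 24519 and 16420 CPM in cKO and to 12028 and 21568 CPM in control. Fibroblast and monocyte-macrophage markers were highest in cKO replicate 2 (607 and 405 CPM, against 36.4 to 160 and 36.4 to 117 CPM elsewhere). Sebaceous gland markers were at 627 and 1607 CPM in cKO and at 550 and 505 CPM in control. Skeletal muscle markers summed to 44.5 and 89.9 CPM in cKO and to 1387 and 917 CPM in control. Hair markers summed to 408 and 315 against 1382 and 1284 CPM. Nearly all of the hair counts were from Tchh (99 and 26 in cKO, with 257 and 398 in the controls). Krt27, Krt31 and Krt35 of that list had 0 counts in every library. In bulk epidermis, fewer cells of a type and less RNA per cell cannot be told apart.

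Il36a rose in the cKO epidermis and was the only one of the 6 tested members past the threshold. The mean levels of Il36g and of the antagonist Il36rn were each more than 3 times as high in cKO, without passing it, and Il18 was higher with a wide spread. The IL-1 antagonists Il1rn and Il1r2 did not separate the groups, and Il1a had no count in any library. Of the 6 tested members, 1 was called higher at an adjusted p under 0.05, where 0.66% of all tested genes were. Both cKO values lay above both control values in 4 of the 6 tested members, where 18.9% of all tested genes had this order. The median log2 fold change of the 6 tested members was 1.66, beside 0.01 over all tested genes. These shares are a description, because the family was selected on this contrast and because a gene can pass the filter through the group in which it is high.

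**Figure D1:**
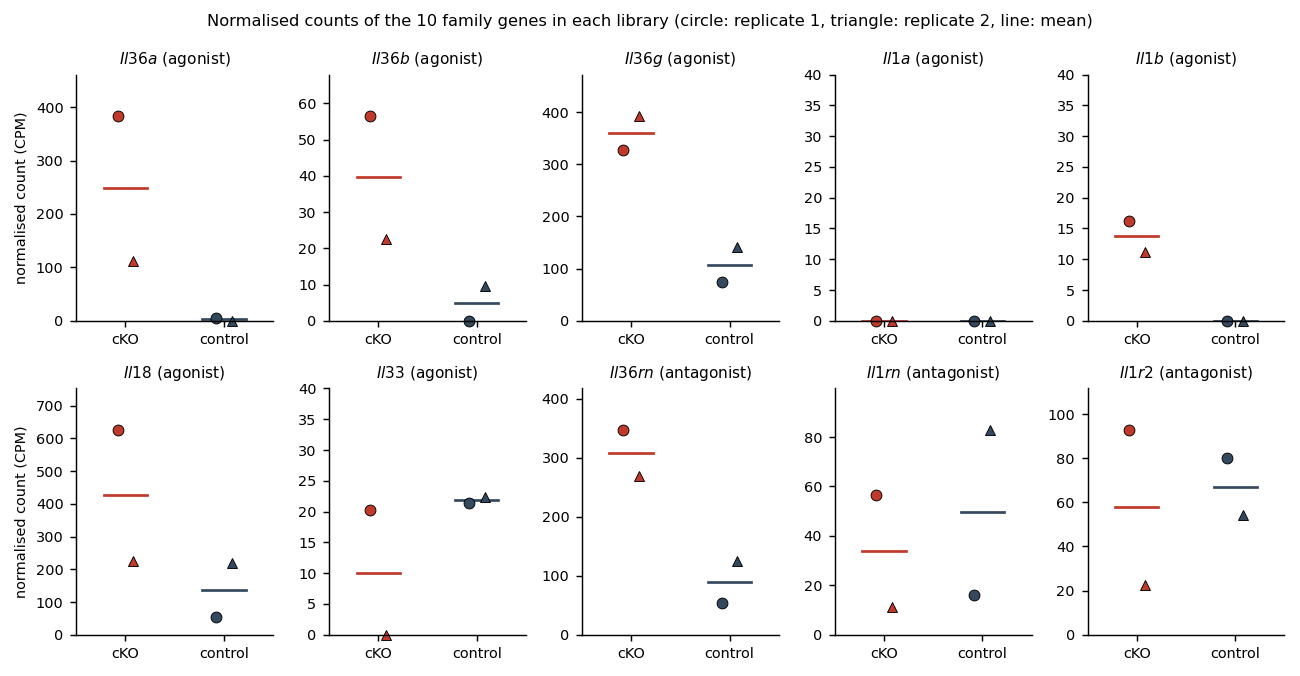
Normalised counts (CPM, linear axes that start at 0 and differ between panels) of the 10 family genes in the 2 cKO and 2 control libraries; circles are replicate 1, triangles replicate 2 and lines the group means. Il36a was at 384 and 112 CPM in cKO and at 5.34 and 0 in control, while the values of Il1rn and Il1r2 overlapped between groups.

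Il36a encodes IL-36 alpha, an agonist of the IL-36 receptor. The gene (ENSMUSG00000026984) lies on chromosome 2 from 24105430 to 24115714 on the plus strand, in GRCm39 coordinates. It had 95 and 10 counts in cKO epidermis, with 1 and 0 in the controls. These counts corresponded to 384 and 112 CPM in cKO and to 5.34 and 0 CPM in control. Both cKO libraries were far above both control libraries, and the cKO libraries differed from each other by more than 3 times. The log2 fold change was 6.64 (standard error, SE, 0.99, adjusted p 0.00378 by edgeR's quasi-likelihood test with Benjamini-Hochberg adjustment). Because the control group holds a single count, the size of the change is poorly bounded. The ratio of the pooled counts was 156, with an exact 95% interval from 27.4 to 6231. This interval covers counting error only and leaves out the spread between libraries. Of the 105 pooled cKO counts, 95 came from cKO replicate 1. Without cKO replicate 1 the log2 fold change was 5.34 and was not called (edgeR adjusted p 0.149). A fit without a library leaves 1 library in its group, which is then assumed to vary like the other group, here and below. It was also lost with limma-voom (adjusted p 0.388), whereas DESeq2 kept it (adjusted p 0.00169). Over all alternatives the edgeR, DESeq2 and limma adjusted p of Il36a ranged from 9.24e-12 to 0.388. The lowest came from edgeR with a crossed pairing of the replicate numbers, chosen after the data were seen.

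Il36g encodes IL-36 gamma, the IL-36 agonist most typical of keratinocytes. It is a neighbour of Il36a (ENSMUSG00000044103, chromosome 2, 24076488 to 24083580, plus strand). It had 81 and 35 counts in cKO epidermis, with 14 and 44 in the controls, which is 328 and 393 CPM against 74.7 and 141 CPM. The groups did not overlap, and the cKO replicates lay closer together than for any other abundant member (360 ± 46.5 CPM in cKO and 108 ± 46.5 CPM in control, SD, n = 2). The log2 fold change of 1.70 (SE 0.48) did not pass the threshold after adjustment over all genes (edgeR adjusted p 0.174, unadjusted p 0.00329). With each library left out in turn it stayed between 1.35 and 2.25. A long noncoding RNA on another chromosome, Gm15983, shares a stretch of at least 150 bases at 95% identity or more with Il36g. It had 0 counts in every library.

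Il36b encodes the third agonist, IL-36 beta (ENSMUSG00000026985, chromosome 2, 24043173 to 24050531, plus strand). It had 14 and 2 counts in cKO epidermis, with 0 and 3 in the controls, too few for the filter. The levels were 56.6 and 22.5 CPM in cKO and 0 and 9.58 CPM in control. Both cKO values lay above both control values, as for Il36a, an order that 18.9% of all tested genes had. It rests on 2 counts in cKO replicate 2 against 3 in the deeper control replicate 2. The ratio of the pooled counts was 7.94 with an exact 95% interval from 2.27 to 42.5, which covers counting error only. In the fit to which it was added, the log2 fold change was 2.79 with an SE of 1.31 (edgeR adjusted p 0.594). It was 1.83 without cKO replicate 1 and 5.91 without control replicate 2.

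Il36rn encodes the IL-36 receptor antagonist (ENSMUSG00000026983, chromosome 2, 24166966 to 24173438, plus strand). It had 86 and 24 counts in cKO epidermis, with 10 and 39 in the controls, or 348 and 270 CPM against 53.4 and 125 CPM. Each cKO value was more than 2 times each control value. The log2 fold change was 1.76 (SE 0.50, edgeR adjusted p 0.183, unadjusted p 0.00380), close to that of Il36g. It stayed between 1.32 and 2.53 with each library left out, and passed the threshold without cKO replicate 2 (edgeR adjusted p 0.0398), with 1 cKO library set against the spread of the controls. The antagonist was therefore higher alongside the agonists in these libraries, with neither Il36g nor Il36rn past the threshold when all 4 libraries were used.

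**Figure D2:**
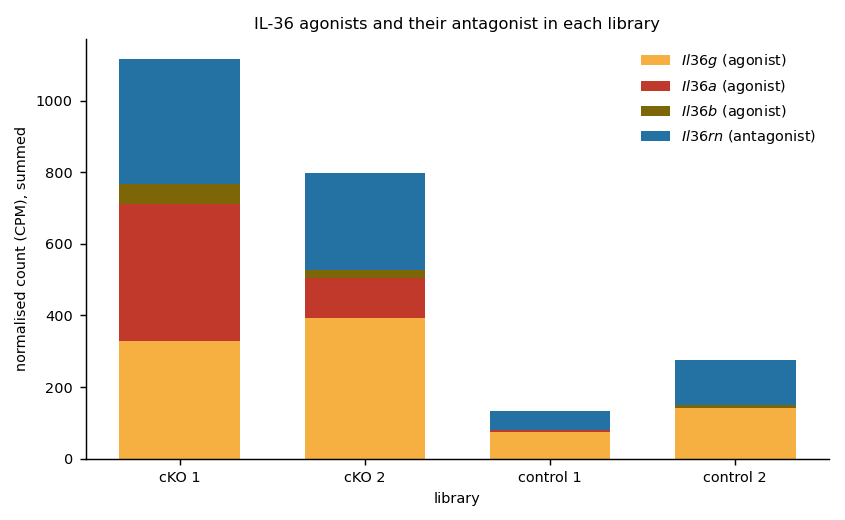
Stacked normalised counts (CPM) of the 3 IL-36 agonists and their antagonist Il36rn in each of the 4 libraries. The 4 genes together reached 1116 and 798 CPM in cKO and 133 and 275 CPM in control, and Il36a is visible as a sizeable segment in the cKO libraries only.

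The balance of agonist and antagonist was followed as a share of counts within each library, which does not depend on scaling between libraries. Il36rn made up 31.2% of the counts of the 4 IL-36 genes in cKO replicate 1 (exact 95% interval 25.7% to 37.0%) and 33.8% in cKO replicate 2 (23.0% to 46.0%). In control it made up 40% in replicate 1 (21.1% to 61.3%) and 45.3% in replicate 2 (34.6% to 56.5%). The antagonist share was thus lower in both cKO libraries, but the intervals overlapped. When Il36a was set aside, Il36rn was 47.5% and 39.3% of the remaining counts in cKO and 41.7% and 45.3% in control, and the groups no longer separated. Within the agonists, Il36a held 50.0% (42.7% to 57.3%) and 21.3% (10.7% to 35.7%) of the counts in cKO and 6.67% (0.169% to 31.9%) and 0% (upper limit 7.55%) in control. Il36g held 93.3% and 93.6% of agonist counts in control and 42.6% and 74.5% in cKO. The make-up of the IL-36 agonists therefore also differed between the 2 cKO libraries, whose intervals for Il36a did not overlap. Scaled by exon length, the Il36a share was 63.9% and 33.1% in cKO and 11.8% and 0% in control. Counts from the 3' ends do not grow with transcript length. This scaling therefore raises the share of Il36a, with 883 bases of exon against 1648 for Il36g. No test of these shares was made.

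The genes of the IL-36 locus sit side by side. Between Il36b and Il1rn, the interval of chromosome 2 from 24043173 to 24241506 (198.3 kb) holds 6 protein-coding genes of the table, all on the plus strand. In order they are Il36b, Il36g, Il36a, Il36rn, Il1f10 and Il1rn. The first 4 had both cKO values above both control values, an order that 18.9% of all tested genes had. For Il36b this order rests on 2 counts in cKO replicate 2 against 3 in the deeper control replicate 2. Il1f10, which encodes IL-38, had 2 counts in control replicate 1 and 0 elsewhere, and Il1rn at the far end did not follow its neighbours. The nearest coding genes outside, Tbpl2 and Psd4, had 0 counts in every library and 4 and 2 counts in cKO, with 8 and 6 in the controls.

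Il18 encodes an interleukin that keratinocytes hold as an inactive precursor until caspase-1 cleaves it (ENSMUSG00000039217, chromosome 9, 50466127 to 50493140, plus strand). It had 155 and 20 counts in cKO epidermis, with 10 and 69 in the controls, or 627 and 225 CPM against 53.4 and 220 CPM. The lower cKO library and the higher control library were nearly equal, and with library totals as the only scaling they changed places (168 CPM in cKO replicate 2 and 214 CPM in control replicate 2). The log2 fold change was 1.63 with an SE of 0.62 (edgeR adjusted p 0.457, unadjusted p 0.0207). It became 0.61 without cKO replicate 1 and 0.99 without control replicate 1, and it passed the threshold without cKO replicate 2 (2.14, edgeR adjusted p 0.0138), again with 1 cKO library set against the spread of the controls. Without control replicate 2 it was 3.02. The libraries of each genotype thus differed from each other about as much as the genotypes did.

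The IL-1 agonists were close to the detection limit. Il1a, which encodes the preformed alarmin IL-1 alpha (ENSMUSG00000027399, chromosome 2, 129141530 to 129151892, minus strand), had 0 counts in all 4 libraries. This allows a level of up to 12.1 and 33.7 CPM in the cKO libraries and up to 16.01 and 9.58 CPM in control. Il1b (ENSMUSG00000027398, chromosome 2, 129206490 to 129213059, minus strand) had 4 and 1 counts in cKO epidermis and none in the controls. Its levels were 16.2 and 11.2 CPM in cKO, close to the 16.01 and 9.58 CPM that a count of 0 allows in the controls, and the difference did not pass the threshold in the added fit (edgeR adjusted p 0.722). Exons of Il1a share 222 bases with the antisense noncoding gene Gm14023, and exons of Il1b share 25 bases with Il1bos. Gm14023 had 4 and 0 counts in cKO, with 0 and 2 in the controls. Whether the counting used strand is not given in the sources used here, so reads of these pairs cannot be told apart. The limits given for Il1a hold only for reads assigned to it. Il33, an alarmin of barrier cells (ENSMUSG00000024810, chromosome 19, 29902514 to 29938118, plus strand), was found at 5 and 0 counts in cKO epidermis, with 4 and 7 in the controls. Its level was 20.2 CPM in cKO replicate 1 and 21.3 and 22.4 CPM in control, and the 0 in cKO replicate 2 allows up to 33.7 CPM. A difference was not detectable at this depth (edgeR adjusted p 0.986).

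The IL-1 antagonists were detected at moderate levels and overlapped between genotypes. Il1rn, the IL-1 receptor antagonist (ENSMUSG00000026981, chromosome 2, 24226865 to 24241506, plus strand), was found at 14 and 1 counts in cKO epidermis, with 3 and 26 in the controls, or 56.6 and 11.2 CPM against 16.01 and 83.0 CPM. In each genotype 1 library was high and the other low. The log2 fold change was -0.40 with an SE of 0.91 (edgeR adjusted p 0.988). It was 1.21 without control replicate 2 and -2.20 without cKO replicate 1. Il1r2, the decoy receptor (ENSMUSG00000026073, chromosome 1, 40113239 to 40164391, plus strand), was found at 23 and 2 counts in cKO epidermis, with 15 and 17 in the controls, or 93.0 and 22.5 CPM against 80.04 and 54.3 CPM. The control values lay between the cKO values, with a log2 fold change of -0.03 and a standard error of 0.73 (edgeR adjusted p 0.998). Without cKO replicate 1 it was -1.57. The standard errors leave room for changes of more than 2 times in either direction for both genes.

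**Figure D3:**
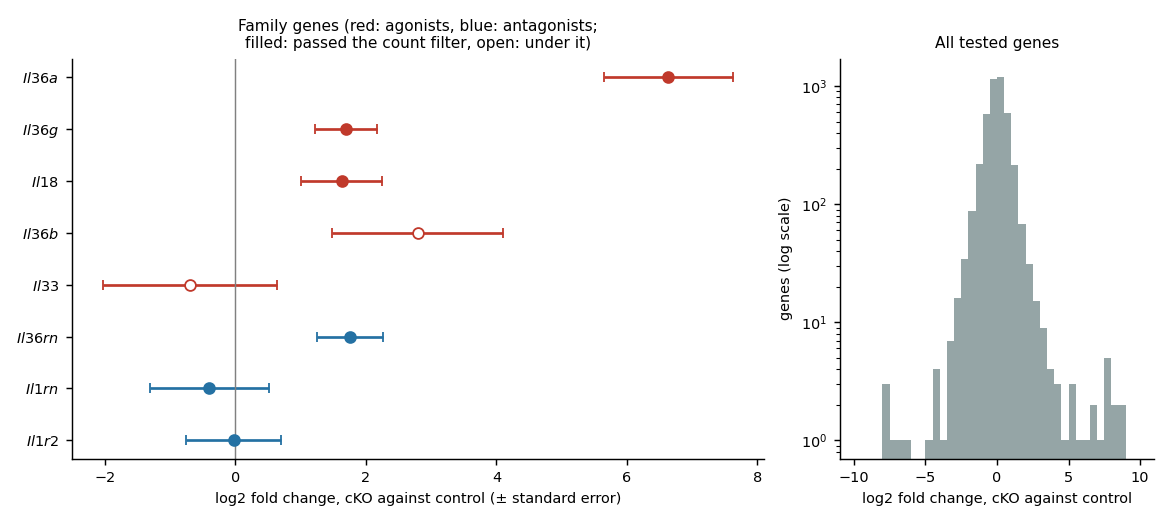
Left, log2 fold changes of cKO against control with standard errors for 8 family genes (red agonists, blue antagonists, open symbols for genes under the count filter; Il1a and Il1b are not drawn because the control libraries held no count). Right, the same quantity for all 4243 tested genes on a log count axis; Il36a, at 6.64, lies in the upper tail, and Il36g, Il18 and Il36rn lie between 1.63 and 1.76.

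**Figure D4:**
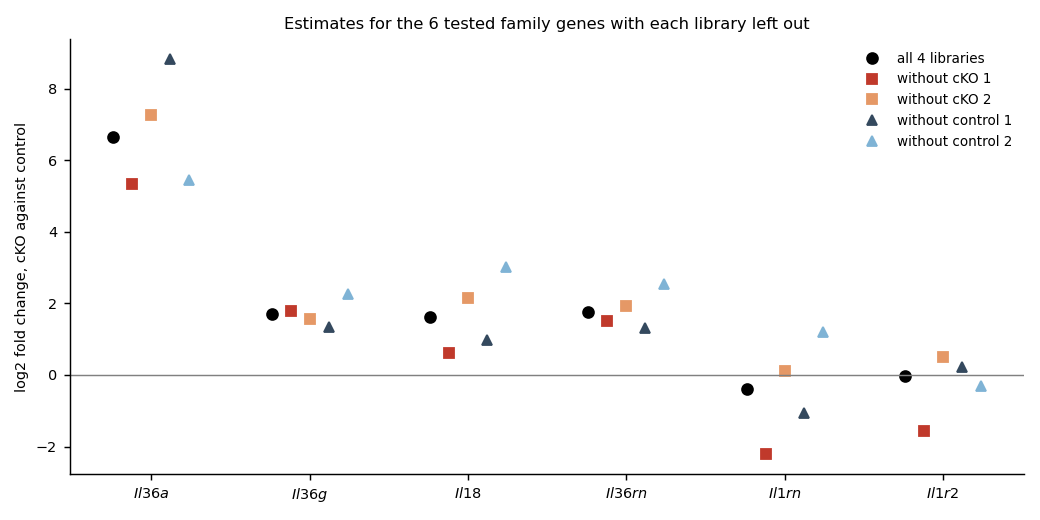
Log2 fold change of the 6 tested family genes with all 4 libraries (black) and with each library left out. Il36a, Il36g, Il18 and Il36rn stay above 0 in each case, whereas Il1rn (-2.20 to 1.21) and Il1r2 (-1.57 to 0.50) fall on both sides.

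Summed by role, the 7 agonists had 354 and 68 counts in cKO epidermis, with 29 and 123 in the controls, or 1431 and 764 CPM against 155 and 393 CPM. The cKO mean was 4.01 times the control mean, or 3.13 times without Il36a. The latter ratio rests mostly on Il18 and Il36g and does not show a rise shared by the 6 genes. Il18 gave 175 pooled counts for cKO against 79 for control, and Il36g gave 116 against 58. Il36b gave 16 against 3, Il1b 5 against 0 and Il33 5 against 11, while Il1a had none. Scaled by library totals only, Il18 did not separate the groups (168 CPM in cKO replicate 2, 214 CPM in control replicate 2). The difference between the groups' mean log2 levels, 2.08 for all agonists, ranged from 1.41 when control replicate 1 was left out to 2.76 when control replicate 2 was. Without Il36a it was 1.77, with a range from 1.07 (without control replicate 1) to 2.47 (without control replicate 2). The 3 antagonists had 123 and 27 counts in cKO epidermis, with 28 and 82 in the controls, or 497 and 303 CPM against 149 and 262 CPM, a ratio of means of 1.95. Il36rn alone carried that difference, since Il1rn and Il1r2 together were at 150 and 33.7 CPM in cKO and 96.1 and 137 CPM in control. Antagonists formed 25.8% (21.9% to 30.0%) and 28.4% (19.6% to 38.6%) of all family counts in cKO and 49.1% (35.6% to 62.7%) and 40% (33.2% to 47.1%) in control. All family counts include Il18 and Il33, which have receptors of their own. Il18 alone gave 155 of 477 and 20 of 95 counts in cKO, with 10 of 57 and 69 of 205 in control. This share is therefore not a balance at shared receptors, and it was not computed without Il18 or Il36a.

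The order of levels within the family differed between the genotypes mainly in the place of Il36a. Per kilobase of exon, the control order was Il18 (133 CPM per kilobase), Il36g (65.3), Il1r2 (35.2) and Il36rn (19.8), with Il36a near the bottom at 3.02. In cKO the order was Il18 (413), Il36a (281), Il36g (219), Il36rn (68.7), Il36b (32.5) and Il1r2 (30.3). The first 3 of the cKO order did not differ beyond the spread of Il18 and Il36a between their replicates (SD 276 and 218 CPM per kilobase, n = 2). Counts of a 3' library do not grow with transcript length. By CPM without length scaling, the first 3 were the same in both genotypes. They were Il18 (426 CPM in cKO and 137 CPM in control), Il36g (360 and 108 CPM) and Il36rn (309 and 89.0 CPM). On that measure Il36a had rank 4 in cKO (248 CPM) and rank 8 in control (2.67 CPM).

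Each gene was also expressed per 1000 counts of the keratinocyte marker list of the same library, a scaling chosen after the data were seen. Markers of that list moved in both directions, with log2 fold changes of 2.04 for Krt14, 1.69 for Krt1 and -1.51 for Dsg1a. None of these 3 passed the threshold (edgeR adjusted p 0.0507, 0.239 and 0.184). The scale is therefore not a measure of keratinocyte content alone. Il36g was at 13.4 and 24.0 in cKO and at 6.21 and 6.51 in control on this scale. Il36rn was at 14.2 and 16.4 against 4.44 and 5.77, and Il18 at 25.6 and 13.7 against 4.44 and 10.2. On this scale 4 of the 6 tested members had both cKO values above both control values, where 7.07% of all tested genes had this order. With library totals 3 of the 6 did, where 11.9% of all tested genes did, and Il18 was the one that changed. Neutrophil markers were nearly absent. Of the 8 markers 1 was detected (Retnlg, with 0 and 2 counts against 1 and 1), and Ly6g, Mpo, Ngp, Ltf, Cxcr2, Csf3r and Mmp8 were at 0. Langerhans cell markers (6 of 6 detected) summed to 1160 and 3158 CPM in cKO and 3917 and 2207 CPM in control. Most of it came from Cd74, H2-Aa, H2-Ab1 and H2-Eb1. Cd207 of the same list had 1 and 0 counts in cKO, with 8 and 10 in the controls. T cell markers (7 of 8 found in the table, all detected) summed to 255 and 191 against 342 and 265 CPM. Thy1 gave 42 of the 63 T cell marker counts in cKO replicate 1. It had 1 count in cKO replicate 2, with 10 and 9 in the controls. Ptprc had 2 and 4 counts in cKO, with 26 and 18 in the controls. The part of muscle, hair, sebaceous, fibroblast and immune markers in the cytokine differences was not tested.

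RefSeq holds a promoter window for 9 of the 10 members in GRCm38.p6, the exception being Il36a. The 250 bases before the first annotated start are shown for Il36g, Il36rn and Il18, the other tested members with higher values in both cKO libraries, and for Il1rn, the neighbour that did not separate. Capitals mark matches, on either strand, to the AP-1 motif TGANTCA, the NFAT core GGAAA (read on the other strand as TTTCC) or an NF-kB pattern (GGGA and CC with 4 bases of any kind between them). A match to the last may contain the NFAT core. The windows are chr2:24186226-24186475 (plus) for Il36g, chr2:24276704-24276953 (plus) for Il36rn, chr9:50554450-50554699 (plus) for Il18 and chr2:24336610-24336859 (plus) for Il1rn.
Il36g: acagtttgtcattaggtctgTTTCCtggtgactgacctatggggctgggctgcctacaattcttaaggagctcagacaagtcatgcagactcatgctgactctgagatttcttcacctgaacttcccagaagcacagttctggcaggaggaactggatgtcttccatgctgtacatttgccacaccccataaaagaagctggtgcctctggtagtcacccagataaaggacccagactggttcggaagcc
Il36rn: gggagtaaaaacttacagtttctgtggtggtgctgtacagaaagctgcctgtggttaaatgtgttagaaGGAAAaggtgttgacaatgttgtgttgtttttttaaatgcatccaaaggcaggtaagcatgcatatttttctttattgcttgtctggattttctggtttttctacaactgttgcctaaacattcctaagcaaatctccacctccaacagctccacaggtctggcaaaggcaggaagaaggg
Il18: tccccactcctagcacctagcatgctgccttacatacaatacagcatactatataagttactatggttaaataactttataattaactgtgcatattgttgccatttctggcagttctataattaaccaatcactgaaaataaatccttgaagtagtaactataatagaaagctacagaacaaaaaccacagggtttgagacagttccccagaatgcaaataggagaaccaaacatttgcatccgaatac
Il1rn: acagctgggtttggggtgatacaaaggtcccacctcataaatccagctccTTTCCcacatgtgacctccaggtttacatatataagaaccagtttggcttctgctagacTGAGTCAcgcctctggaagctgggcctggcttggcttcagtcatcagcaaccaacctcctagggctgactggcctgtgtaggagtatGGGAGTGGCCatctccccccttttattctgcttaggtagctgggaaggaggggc

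In these letters Il36g had 1 match to the NFAT core, 230 bases before the start, and Il36rn had 1, at 181 bases. The window of Il18 held no match to the 3 motifs. Il1rn had 1 match to each, with AP-1 at 141, the NFAT core at 200 and the NF-kB pattern at 54 bases before the start. Among the 9 windows the NFAT core was found in 7, AP-1 in 3 (Il36b, Il1a and Il1rn) and the NF-kB pattern in 1. Of the 32851 windows of the same length in the RefSeq table, 55.6% held the NFAT core, 6.75% AP-1 and 17.6% the NF-kB pattern. The most frequent of the 3 motifs among the members was thus also present in most promoters.

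The genes whose profile was most like that of Il36a were found by the Euclidean distance between log2 CPM, centred on each gene's mean, over the 4 libraries. Of 4237 genes compared, the closest were Stfa2 (distance 0.48), Lce1g (0.98) and Gsdmc (0.99). Stfa2 encodes a stefin inhibitor of cysteine proteases and had 86 and 8 counts in cKO epidermis and none in the controls. Lce1g, a late cornified envelope protein, had 100 and 19 counts against 4 and 5, and Gsdmc, a pore-forming gasdermin, had 43 and 11 against 0 and 0. All 3 shared with Il36a the higher value in cKO replicate 1, and the likeness rests on 4 libraries.

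The remaining genes of the pathway were compared by role, and 0 of the 11 tested were called in either direction by edgeR, beside 0.848% of all tested genes. DESeq2 and limma-voom also called 0. At an unadjusted p under 0.05 there were 0 higher and 1 lower (Nfkbia), beside 4.22% and 4.17% of all tested genes. Of the 9 receptors, binding proteins and related genes all had a count and 1 passed the filter. Il1rl2, the IL-36 receptor itself, had 10 and 5 counts in cKO epidermis, with 11 and 6 in the controls. Its log2 fold change was 0.32 (SE 0.89, edgeR adjusted p 0.992). Its levels, 40.4 and 56.2 CPM in cKO and 58.7 and 19.2 CPM in control, overlapped. Il1r1, the IL-1 receptor, had 6 and 0 counts against 5 and 3. Sigirr, an inhibitory receptor of the family, had 5 and 4 counts in cKO epidermis and none in the controls, or 20.2 and 45.0 CPM in cKO, and was not past the threshold in the added fit (edgeR adjusted p 0.481).

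Of the 18 genes for cytokine processing, 14 had a count and 2 passed the filter. Pycard, the adaptor that assembles inflammasomes, was at 283 and 146 CPM in cKO and 155 and 195 CPM in control. Nlrp10, an NLR protein of differentiated keratinocytes, was at 158 and 135 CPM in cKO and 42.7 and 86.2 CPM in control. Both cKO values of Nlrp10 lay above both control values, an order that 18.9% of all tested genes had. Its log2 fold change of 1.15 (SE 0.56) was not past the threshold (edgeR adjusted p 0.625). Ctss, a cathepsin that can activate IL-36 gamma, had 9 and 5 counts against 8 and 12.

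Of the 28 signalling genes all had a count and 8 passed the filter, 5 with a log2 fold change above 0 and 3 below, where 50.4% of all tested genes lay above 0. The median of the 8 was 0.25, beside 0.01 over all tested genes. The 3 most abundant were all lower in mean. Nfkbia, the NF-kB inhibitor that NF-kB itself induces, was at 295 and 191 CPM in cKO and 427 and 549 CPM in control (log2 fold change -0.97, SE 0.44, edgeR adjusted p 0.581, unadjusted p 0.0451). Both cKO values lay below both control values, an order that 19.6% of tested genes had. Tollip, an adaptor that restrains IL-1 receptor signalling, was at 117 and 45.0 CPM against 133 and 230 CPM (log2 fold change -1.05, edgeR adjusted p 0.671). Tab2, which links the kinase TAK1 to its activators, was at 239 and 157 CPM against 213 and 323 CPM.

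**Figure D5:**
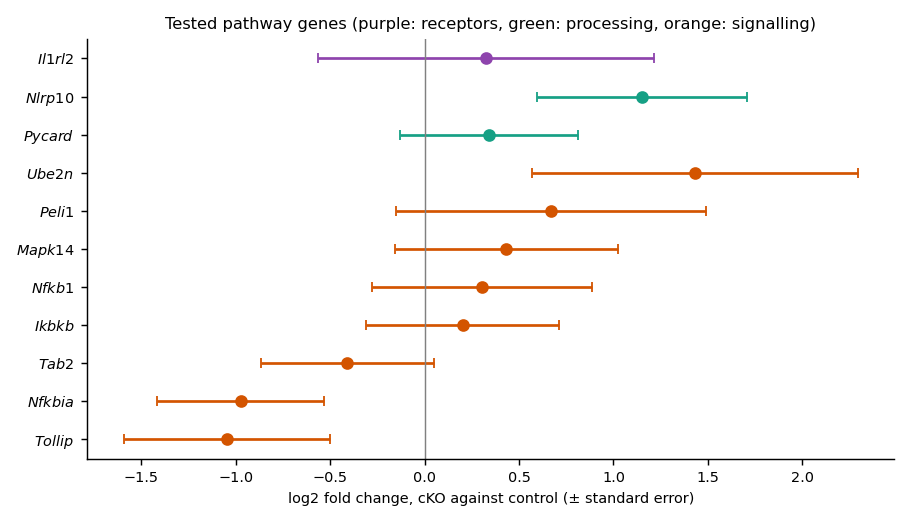
Log2 fold changes of cKO against control with standard errors for the 11 tested genes of the receptor, processing and signalling lists. None passed the threshold. The groups did not overlap for Nlrp10 (1.15) and Ube2n (1.43), above 0, and for Nfkbia (-0.97) and Tollip (-1.05), below 0. Over all tested genes, 18.9% had both cKO values above both control values and 19.6% had both below.

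Genes that IL-1 and IL-36 are known to induce in skin were almost without counts. Of the 31 listed, 18 had 0 counts in every library and none passed the filter. The chemokine genes Cxcl1, Cxcl2, Cxcl3 and Cxcl5 and the cytokine genes Il6, Tnf and Csf2 were among those at 0. All 31 together had 26 and 22 counts in cKO epidermis, with 10 and 19 in the controls. The sums were 105 and 247 CPM in cKO against 53.4 and 60.7 CPM, with the higher cKO value in replicate 2. Both cKO values lay above both control values, an order that 18.9% of all tested genes had singly. Most of the cKO counts came from S100a8 and Hbegf, and this sum was not tested. S100a8, a subunit of the antimicrobial protein calprotectin, had 8 and 5 counts in cKO epidermis, with 2 and 3 in the controls (edgeR adjusted p 0.718 in the added fit). Hbegf, a growth factor released on wounding, had 9 and 8 against 0 and 9, and Ccl2, a monocyte chemokine, had 0 and 1 against 5 and 3. No single gene of the list had enough counts for the filter.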

How the data were processed

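The authors deposited 1 table of raw counts per gene for the 4 libraries, and the values were used as deposited. Total RNA came from epidermis that had been separated from dorsal skin, and a kit for the 3' ends of transcripts gave the libraries, which were prepared for MGI sequencing, per the labels' protocols. Trim Galore 0.6.7, Trimmomatic 0.39, cutadapt 3.7, STAR 2.7.10a, featureCounts 2.0.1 and the build GRCm39 are named in the submitters' processing notes, without roles. How molecular identifiers, strand and reads with several alignments were treated is not given in the sources used here. The table had 0 further columns of samples.

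Genotype came from the sample titles, with 2 libraries per group. The filter was filterByExpr, with a minimum count of 10 and a minimum total of 15, library sizes were scaled with TMM, and cKO was compared with control in edgeR 4.0.16 (R 4.3.3, glmQLFit and glmQLFTest). Benjamini-Hochberg adjustment ran over all 4243 genes tested, with a threshold of 0.05. Members and pathway genes under the filter were tested in a second fit to which they were added. CPM are counts per 1000000 counts of the TMM-scaled library. The standard error was derived from the log2 fold change and its F statistic, as the size of the former over the root of the latter. The fit was tested on simulated data. Intervals are exact (Clopper-Pearson), at 95%, and cover counting error only.

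The members, the role groups and the pathway and marker lists were chosen with earlier results of these data known. The text names all members, Stim1 and Stim2. In each pathway list it names the genes past the threshold or, where there were none, the 3 with the highest mean CPM. It also names the 3 genes closest in profile to each called member. Other pathway genes that are named were picked out after their values were seen. The alternatives were other scalings, other filters, DESeq2 1.42.0, limma-voom (limma 3.58.1), other edgeR fits, a replicate block, other thresholds and each library left out. Promoter sequences came from RefSeq (GRCm38.p6), and near-identical transcripts were sought with blastn 2.17.0 in GENCODE M21.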

Additional observations from a re-analysis of the deposited data

How the results depend on the processing

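The members called higher numbered 1 with all 4 libraries, 0 with limma-voom and 0 to 3 with a library left out (0 without cKO replicate 1, 3 without cKO replicate 2). Il36a kept its direction in all 16 alternatives and its call in 14. Alternatives were run for the 9 members with counts and for Stim1, Stim2, Il1rl2, Pycard, Nlrp10, Nfkbia, Tollip and Tab2, and among these direction turned for Il1r2, which was 0.34 with limma-voom, and, with a library left out, for Il1rn (-2.20 to 1.21), Il1r2 (-1.57 to 0.50), Il1rl2 (-0.32 to 1.27) and Pycard (-0.31 to 0.69). The called pathway genes stayed at 0 in all settings.

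Over all genes, 28 were higher and 8 lower. These counts became 16 and 0 at a threshold of 0.01 (177 lower at an unadjusted p under 0.05 in edgeR), 43 and 17 at 0.1, 49 and 26 without a count filter, and 12 and 3 with limma-voom. Library totals gave 26 higher and 15 lower, and a filter at mean CPM 10 gave 40 higher and 15 lower. With a library left out, higher genes ranged from 27 to 48 and lower genes from 4 to 28, with 28 lower without cKO replicate 1, 48 higher and 25 lower without cKO replicate 2, and 4 lower without control replicate 2. Library totals moved the median log2 fold change of all genes from 0.01 to -0.24.

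The replicate numbers share only a number. With a replicate block 16 genes were higher and 1 lower, and Il36a remained called (adjusted p 0.00635). Deviations of same-numbered libraries correlated at -0.20 across genes, and crossed pairing, chosen after seeing the data, gave 90 higher and 57 lower genes, with 4 members called higher. The depth of cKO replicate 2 limits single counts most.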
